A study of Mus musculus with 28 samples.

Results

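Immediate early genes and heat shock genes were followed in mouse epidermis across 25 RNA-seq libraries. The members were the rows of the deposited tables with the symbols Fos, Fosb, Jun, Junb, Egr1, Atf3 and Ier2, the 7 immediate early genes, and Hspa1a, Hspa1b and Dnajb1, the 3 heat shock genes, so 10 of 24946 genes. All 10 members passed the filter on low values in each of the 4 tables. The study deleted Kdm6a (Utx), which lies on the X chromosome and encodes an enzyme that removes methyl groups from histone H3, with a Cre driven by the keratin 14 promoter, which is active in the basal keratinocytes of the epidermis. Libraries were made from poly(A) RNA of whole epidermis, and values are the authors' normalized read counts per gene, printed for the members in kcounts (1000 normalized counts). The labels give 28 samples, of which 3 heterozygous females (Cre+; Utx +/fl) had no values per library.

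The conditional knockout (cKO) groups were 5 young females and 2 aged females (both Cre+; Utx fl/fl), and 3 young males and 3 aged males (both Cre+; Utx fl/Y). Their controls were 4 young and 2 aged females (Cre-; Utx fl/fl), 3 young males (Cre-; Utx fl/Y in controls 1 and 2, Cre-; Utx +/Y in control 3) and 3 aged males (Cre-; Utx fl/Y). Every control lacked Cre, so the deletion and the Cre transgene itself cannot be told apart. Ages are known only as young or aged, from the titles of the tables. No label ties replicates to different animals, so p-values measure the spread between these libraries, which may be technical. Each library has a number in its title, and runs of numbers less than 10 apart within a table are called library-number series here. Runs of young females, heterozygotes included, and of young males that interleave share a name, as in U0110 to U0115 and U0458 to U0468. Runs of aged females and aged males were kept apart, although U0137 to U0138 of aged females lies less than 10 from runs of aged males. Nothing in the labels says what a number marks.

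Estimated depth was 15.8 to 34.4 M reads per library. Basal and suprabasal keratinocyte markers were detected in every library, with 7 of 7 and 6 of 6 genes above 0. In aged males the labels of 3 libraries were at odds with genes that separate the groups elsewhere, 1 library in both Kdm6a and Gh, the growth hormone gene, and the other two in Gh alone. The library labelled cKO 5 had a Kdm6a value of 1322, against 584 and 673 in the other 2 libraries labelled cKO, and a value of 0 for Gh, whose value was at least 331 in all other cKO libraries. The libraries labelled control 5 and control 6 had Gh values of 2443 and 559, against at most 2.58 in all other controls, while their Kdm6a values, 1224 and 1511, were above the 1090 of control 4. Results in aged males are therefore given with and without these 3 libraries. In bulk RNA, fewer cells of a type and less RNA per cell cannot be told apart.

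Immediate early genes are transcribed within minutes of a stimulus, from growth factor and stress signalling, without new protein synthesis. Fos, Fosb, Jun and Junb encode subunits of the dimeric transcription factor AP-1, which in epidermis takes part in keratinocyte differentiation and in the response to wounding. Heat shock genes encode chaperones and are switched on by the factor HSF1 when unfolded proteins accumulate. Both kinds of gene are known to respond to the isolation of tissue and cells.

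The promoters of the members carry different response elements, and those of 5 members are shown: Fos as the most abundant member, Fosb and Atf3 as the members that passed the test between library-number series in young males, and Hspa1a and Hspa1b as a near-identical gene pair. Sequences were read from RefSeq (GRCm38.p6), which matched 8 of the 10 members. Each line gives the last 150 bases before the start site, 5′ to 3′ on the strand of the gene, in lower case. The start is the first one listed for the gene, and other starts were not searched. For Atf3 it lies inside the GENCODE gene (chr1:191170296-191218039, minus strand), so the sequence before the outermost Atf3 start is not shown. Capitals mark every match, on either strand (so that CCAAT also appears as its reverse complement), to TGACG, the first bases of the cAMP response element, to GAANNTTC, the inverted repeat of the heat shock element, to CCAAT, to the AP-1 site TGANTCA or to the CArG box of serum response factor.
Fos, chr12:85473740-85473889, plus strand: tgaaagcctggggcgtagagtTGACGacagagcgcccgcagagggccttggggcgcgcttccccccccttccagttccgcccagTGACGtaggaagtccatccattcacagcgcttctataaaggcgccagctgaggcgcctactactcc
Fosb, chr7:19310046-19310195, minus strand: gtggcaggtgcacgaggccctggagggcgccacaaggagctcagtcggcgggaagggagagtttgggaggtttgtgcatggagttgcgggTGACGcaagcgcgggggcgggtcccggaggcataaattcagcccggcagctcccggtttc
Atf3, chr1:191183334-191183483, minus strand: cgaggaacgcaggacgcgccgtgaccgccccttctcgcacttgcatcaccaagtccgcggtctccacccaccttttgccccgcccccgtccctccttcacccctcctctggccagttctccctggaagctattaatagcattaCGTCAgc
Hspa1a, chr17:34972157-34972306, minus strand: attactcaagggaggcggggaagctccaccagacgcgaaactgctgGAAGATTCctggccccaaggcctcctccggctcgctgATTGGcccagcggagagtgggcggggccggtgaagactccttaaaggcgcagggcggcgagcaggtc
Hspa1b, chr17:34959239-34959388, minus strand: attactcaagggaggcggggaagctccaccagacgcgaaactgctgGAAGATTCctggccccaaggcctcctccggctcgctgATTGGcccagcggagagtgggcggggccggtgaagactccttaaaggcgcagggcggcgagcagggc
Over the 250 bases before the start, TGACG was found in 5 of the 8 members with a sequence (Fos, Fosb, Junb, Atf3 and Dnajb1) and in 17.8% of all 32851 promoters of the same length. GAANNTTC was found in 3 of 8 (Jun, Hspa1a and Hspa1b) and in 6.69% of all promoters. CCAAT was found in 5 of 8 (Jun, Junb, Hspa1a, Hspa1b and Dnajb1) and in 33.8% of all promoters. TGANTCA and the CArG box matched 0 of 8 in this window, against 6.75% and 1.47% of all promoters. No searched motif overlapped another in these 8 promoters. The Hspa1a and Hspa1b promoters differed at 1 of the 150 bases shown, T149G (Hspa1a base first, position counted from the first base shown).

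The gene bodies are spread over several chromosomes, with Junb, Ier2 and Dnajb1 all on chr8 and the heat shock pair side by side on chr17. In GRCm38 (GENCODE), Fos is at chr12:85473890-85477273, Fosb at chr7:19302696-19310051, Jun at chr4:95049034-95052222, Junb at chr8:84974484-84978718, Egr1 at chr18:34859823-34864984, Atf3 at chr1:191170296-191218039 and Ier2 at chr8:84661331-84662852. Hspa1a is at chr17:34969190-34972156 and Hspa1b next to it at chr17:34956436-34959238, and Dnajb1 is at chr8:83608193-83612653. Of the 100-base windows of the Hspa1a transcript, 47.1% occur unchanged in Hspa1b, so how reads were split between these 2 genes is uncertain, and their values were also tested as a sum. Exons of the opposite strand overlap Jun by 232 bases (Junos), Junb by 173 bases (Prdx2) and Hspa1a by 564 bases (Gm20481). The library kit kept the strand, but whether counting used it is not given in the sources used here.

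The members were among the most abundant transcripts of the epidermis. Together they held 0.986% to 2.44% of the summed normalized counts of a library, of which the 7 immediate early genes held 0.864% to 2.29% and the 3 heat shock genes 0.0855% to 0.213%. Fos, the AP-1 subunit that pairs with Jun proteins, ranked between 6 and 19 among all genes, with a median rank of 13. Dnajb1, a co-chaperone that hands clients to Hsp70, had a median rank of 276.

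Per kilobase of exon, Fos had the highest median over the 25 libraries, 41.0 kcounts per kb (range 24.7 to 88.5), and was the highest member in 25 of 25 libraries. Atf3, a stress-induced factor of the ATF/CREB family, came next with 16.5 kcounts per kb (4.69 to 35.5). Junb followed with 13.8, Egr1, a zinc finger factor of the growth factor response, with 12.3, Jun with 11.9 and Fosb with 11.05 kcounts per kb. These neighbours in the order were not separated: Atf3 exceeded Junb in 15 of 25 libraries, Junb exceeded Egr1 in 16, Egr1 exceeded Jun in 11 and Jun exceeded Fosb in 15. Ier2, a short nuclear protein of the early response, had a median of 8.16 kcounts per kb. The inducible Hsp70 genes came after it, with 5.84 kcounts per kb for Hspa1b and 3.50 for Hspa1a, and Hspa1b was the higher of this pair in 25 of 25 libraries. Dnajb1 had the lowest median, 3.13 kcounts per kb, and Hspa1a exceeded it in 16 of 25 libraries. The 4 tables were scaled separately, so these medians describe levels across tables only roughly.

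**Figure D1:**
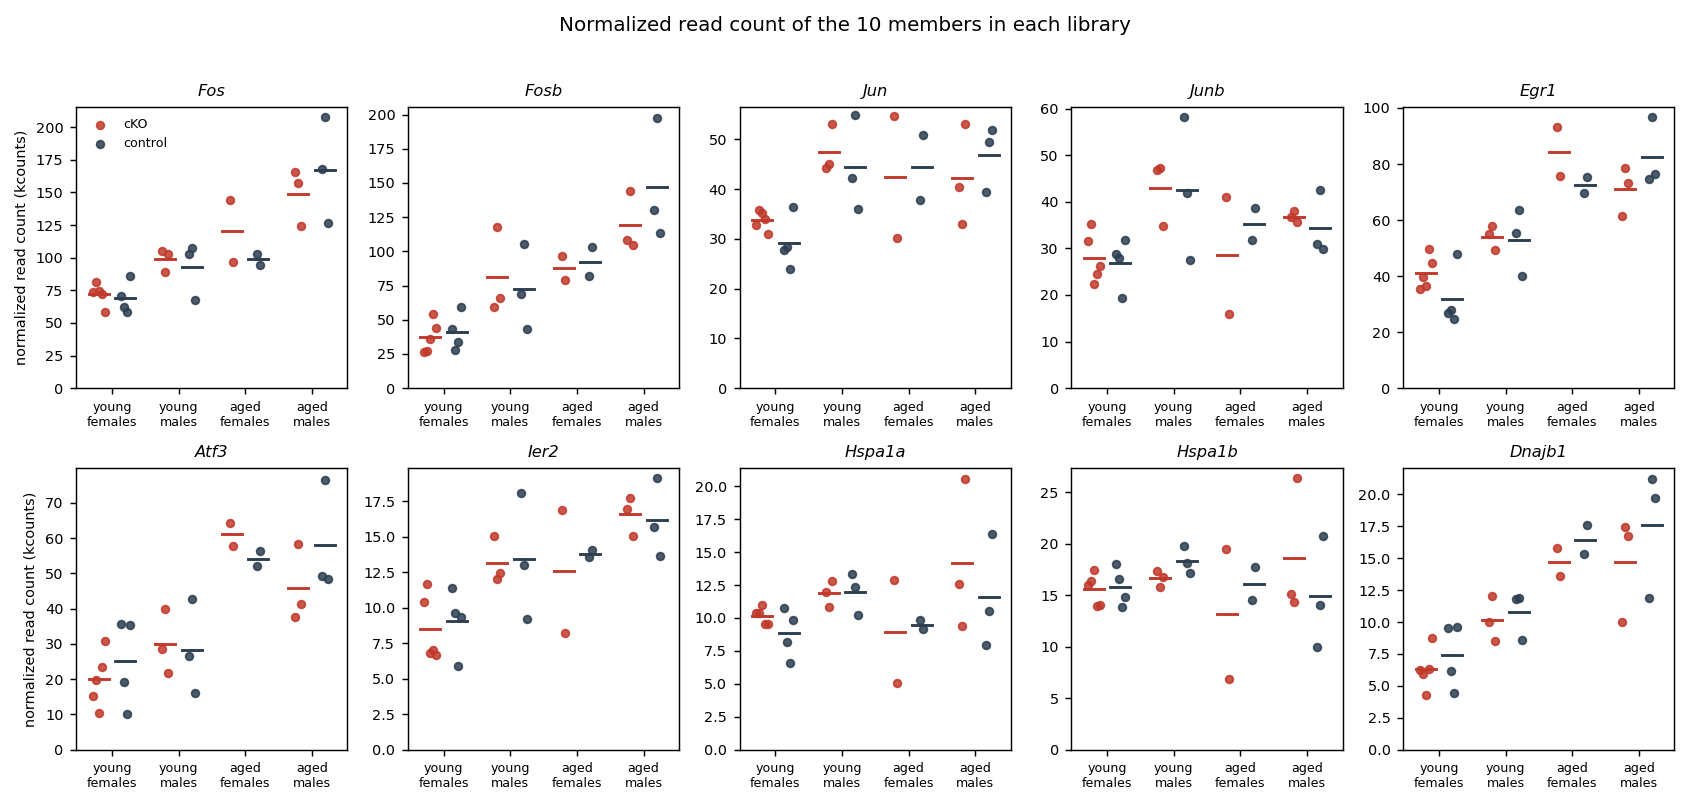
Normalized read count in kcounts (vertical axes, from 0) of each member in each library, by table, with cKO libraries in red left of control libraries in dark blue. Points are libraries and horizontal lines are group means. Within each table the points of the cKO and control libraries intermingle for nearly every member, with gaps between them only for Egr1 and Atf3 in aged females, and levels are not comparable between tables, which were scaled separately.

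The comparison of cKO with control epidermis asks whether loss of Kdm6a shifts these genes. In young females 0 of 10 members passed the test (limma, Benjamini-Hochberg adjusted p under 0.05), beside 3.94% of all 13898 genes tested. At an unadjusted p under 0.05 the limma count was also 0 of 10, beside 16.6% of all genes. In 1 fit of all 25 libraries it was 0 of 10 at the adjusted threshold, beside 3.89%. There Egr1 had an unadjusted p of 0.0297 by limma (adjusted p = 0.252). The share of all genes at the unadjusted threshold in that fit is not given here. The largest difference was that of Egr1. Egr1 had 35.5, 39.6, 36.6, 49.7 and 44.6 kcounts in the 5 cKO libraries, against 26.9, 27.9, 24.6 and 48.0 kcounts in the 4 controls. All 5 cKO values lay above 3 of the 4 control values, and control 4 lay among the highest cKO values. Egr1 averaged 41.2 ± 5.92 kcounts in cKO and 31.8 ± 10.9 kcounts in controls (SD, n = 5 and n = 4), a log2 difference of 0.41 (95% confidence interval -0.03 to 0.86, limma adjusted p = 0.333). With the library-number series as a term of the fit the difference was 0.43 (limma adjusted p = 0.0708, unadjusted p = 0.0126). For that fit the share of all genes under an unadjusted p of 0.05 was not counted. Without control 4 the difference was 0.63, and still did not pass (limma adjusted p = 0.0601).

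The other immediate early members of young females lay closer together. Jun differed by 0.23 (SE 0.13, limma adjusted p = 0.438), with 30.9 to 35.9 kcounts in cKO and 23.9 to 36.4 kcounts in controls. Fos had 73.6, 81.0, 74.3, 72.2 and 58.3 kcounts in cKO, against 70.6, 62.3, 58.1 and 86.2 kcounts in controls, a log2 difference of 0.06 (SE 0.16). The lowest cKO value and the highest control value of Fos both came from the series U0458 to U0468. Junb differed by 0.06, Ier2 by -0.09, Fosb by -0.12 and Atf3 by -0.25 on the log2 scale. Atf3 had the widest interval of the members, -1.13 to 0.63, and its values ran from 10.5 to 30.7 kcounts in cKO and from 10.1 to 35.5 kcounts in controls. Among the heat shock genes, Hspa1a differed by 0.23, Hspa1b by -0.02 and Dnajb1 by -0.21 (limma adjusted p 0.455 to 0.936). The median over the 10 members was a log2 difference of 0.02, beside -0.01 over all genes tested.

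In young males 0 of 10 members passed, beside 0.0146% of all genes tested, and 0 of 10 had an unadjusted p under 0.05 by limma, beside 2.33%. Log2 differences ran from -0.14 (Hspa1b) to 0.18 (Fosb), all with a limma adjusted p of 0.9999. Fosb had 59.2, 118 and 65.8 kcounts in cKO, against 69.0, 106 and 43.3 kcounts in controls. Both groups had their highest Fosb value in the series U0458 to U0468, and the groups overlapped. Within the series U0110 to U0115, U0458 to U0468 and U0223 to U0224 the difference in Fosb was -0.22, 0.16 and 0.60. Hspa1b had 17.3, 15.8 and 16.8 kcounts in cKO, against 19.8, 18.1 and 17.1 kcounts in controls, and the groups overlapped. Without the series U0223 to U0224, whose control 3 had no floxed allele and a summed skeletal muscle marker value of 6454 against 141 to 1390 in the other 5 young males, the differences of Fos, Fosb, Jun, Junb, Egr1 and Ier2 were negative, at -0.19 to -0.03. The part of the muscle RNA in these values was not tested.

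In aged females, with 2 libraries per group, 0 of 10 members passed, beside 0.669% of all genes tested, with 0 of 10 at an unadjusted p under 0.05 by limma, beside 14.3%. For 2 of 10 members, Egr1 and Atf3, cKO and control values did not overlap, beside 44.3% of all genes. Egr1 had 93.1 and 75.6 kcounts in cKO, against 69.5 and 75.3 kcounts in controls (log2 difference 0.21, SE 0.17). Atf3 had 64.3 and 57.8 kcounts in cKO, against 52.0 and 56.3 kcounts in controls (0.17, SE 0.14). For both genes the lower cKO value lay just above the higher control value.

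Several other members of aged females had a wide gap between the 2 cKO libraries. Junb had 41.1 kcounts in cKO 6 and 16.0 kcounts in cKO 7, against 31.7 and 38.7 kcounts in controls. Hspa1b had 19.5 kcounts in cKO 6 and 6.88 kcounts in cKO 7, against 14.5 and 17.8 kcounts in controls. Hspa1a had 12.9 and 5.04 kcounts, and Ier2 16.9 and 8.21 kcounts, in the same cKO libraries. The library cKO 7 thus had the lowest value of its table for Jun, Junb, Ier2, Hspa1a, Hspa1b, Dnajb1 and Fosb, while its Egr1 and Atf3 values were not low. The total of normalized counts, 29.8 M in cKO 7, was close to the 30.5 to 31.1 M of the other 3 libraries. Within the series U0137 to U0138, cKO minus control was -1.37 for Hspa1b, -1.28 for Junb, -0.86 for Hspa1a, -0.77 for Ier2 and -0.75 for Jun. Within the series U0601 to U0603 the same differences were positive, 0.42, 0.37, 0.38, 0.32 and 0.53. Leaving out cKO 7 turned the sign of the table's difference for all 5 genes, and for Jun leaving out control 6 did so too (0.10). Without cKO 7 the table gave 0.28 for Hspa1b and 0.23 for Junb, against -1.22 and -1.13 without cKO 6.

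In aged males 0 of 10 members passed, beside 0.0140% of all genes tested, with 0 of 10 at an unadjusted p under 0.05 by limma, beside 0.830%. Log2 differences ran from -0.33 (Atf3) to 0.32 (Hspa1b). Atf3 had 37.7, 58.2 and 41.4 kcounts in the libraries labelled cKO, against 49.2, 76.5 and 48.4 kcounts in those labelled control. In each of the 3 series the library labelled cKO was lower in Atf3, by 0.38, 0.39 and 0.23. Dnajb1 had 9.98, 17.4 and 16.7 kcounts in libraries labelled cKO, against 11.9, 21.2 and 19.7 kcounts in those labelled control, and was also lower within each series, by 0.26, 0.28 and 0.24. With series as a term of the fit, Atf3, Dnajb1 and Hspa1b had an unadjusted p of 0.0229, 0.0237 and 0.0424 by limma, and an adjusted p of 0.905 each. For that fit the share of all genes under an unadjusted p of 0.05 was not counted. These 3 unadjusted p-values therefore do not set the members apart from other genes.

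Without the libraries labelled cKO 5, control 5 and control 6, which leaves cKO 4, cKO 6 and control 4, the count in aged males remained 0 of 10. The difference of Dnajb1 then became 0.12 and that of Jun 0.24, both positive, while Atf3 stayed at -0.32. Hspa1a then had a log2 difference of 1.02, against 0.28 with all libraries, and Hspa1b 1.002, against 0.32, with limma adjusted p-values of 0.793 and 0.972. The 1 control left for that comparison, control 4, had the lowest values of both Hsp70 genes in the table, 7.91 and 9.96 kcounts, and a summed skeletal muscle marker value of 10378, against 203 to 541 in the other 5 aged males. The part of the muscle RNA in these values was not tested.

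**Figure D2:**
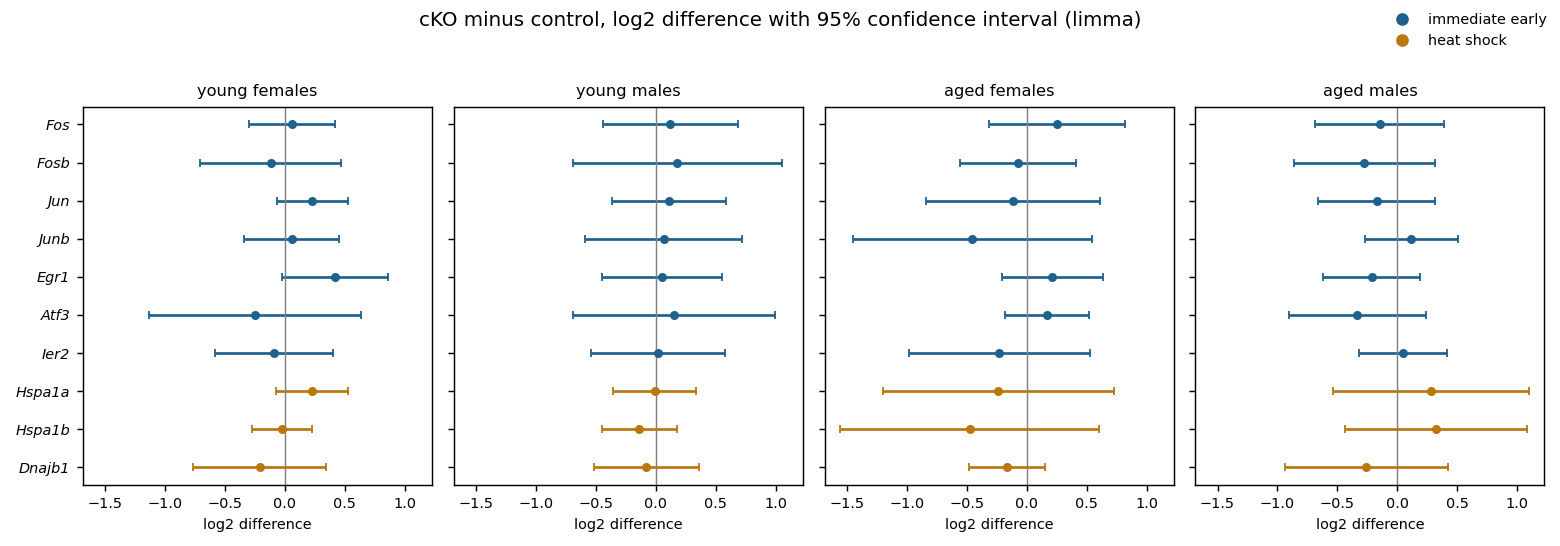
Log2 difference of cKO minus control (horizontal axes) for each member, in 1 panel per table, with points for the limma estimate and bars for its 95% confidence interval. Immediate early genes are in blue and heat shock genes in orange. Every interval includes 0, and the widest is that of Hspa1b in aged females, -1.55 to 0.61.

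The authors' deposited comparison tables gave the same count. By their adjusted p, 0 of 10 members passed in cKO against control in the authors' deposited tables, beside 7.18% of genes with an adjusted p in young females, 0.126% in young males, 4.50% in aged females and 0.00810% in aged males. For heterozygous young females, which have no values per library here, the authors' deposited table gave log2 fold changes above 0 for all 10 members, between 0.06 for Fos and 0.39 for Egr1, with an adjusted p of 0.9999 each, beside 0.271% of genes passing. In that authors' deposited table the mean of Egr1 was 54.6 kcounts in heterozygous and 41.6 kcounts in control females. No test of the common sign of the 10 members was made, because members vary together within a library. The control means there were not those of the authors' cKO comparison of young females, nor a rescaling of them. Control Egr1 was 41.6 against 31.8 kcounts in the cKO comparison, but control Ier2 8.90 against 9.07 kcounts. Which control libraries entered the heterozygous comparison is not given in the sources used here.

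The effect of cKO was also compared between tables. The difference between young females and young males passed for 0 of 10 members, beside 0% of all 13448 genes tested in 1 fit, and the difference between aged females and young females for 0 of 10, also beside 0%. By limma 0 of 10 members had an unadjusted p under 0.05 in either comparison, beside 3.15% and 0.833% of all genes. The largest values were -0.40 for Atf3 in young females minus young males (SE 0.55) and -0.51 for Junb in aged females minus young females (SE 0.43). With these standard errors, the missing calls do not show that the cKO effects were alike.

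Some members differed between library-number series, as did many other genes. With 10 members, the counts below lie near the shares of all genes given beside them. The values of single members show where they differed and do not set the members apart from other genes. With genotype as a term of the fit, 3 of 10 members passed the F test between the 3 series of young females, beside 35.0% of all genes tested. They were Ier2 (limma adjusted p = 0.00415), Junb (0.0158) and Dnajb1 (0.0215). At an unadjusted p under 0.05 they were 6 of 10, beside 46.7% of all genes. Where series are said below not to overlap, the share of all genes without overlap was not counted, and series held as few as 2 libraries.

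Ier2 in young females followed the series most closely. It had 10.4, 11.7, 11.4 and 9.61 kcounts in the series U0110 to U0115, against 6.81, 7.03 and 5.92 kcounts in the series U0252 to U0256. In the series U0458 to U0468 it had 6.68 kcounts in cKO 5 and 9.36 kcounts in control 4. The 4 libraries of U0110 to U0115 were thus above the other 5, whichever their genotype. The log2 difference of U0110 to U0115 minus U0252 to U0256 was 0.71 (SE 0.12, limma adjusted p = 0.00189), a contrast in which 32.6% of all genes passed.

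Junb showed the same contrast, 0.51 (SE 0.12, limma adjusted p = 0.00754). It had 31.6, 35.3, 28.7 and 28.04 kcounts in the series U0110 to U0115, against 22.4, 24.5 and 19.4 kcounts in the series U0252 to U0256. These groups of libraries did not overlap. In the series U0458 to U0468 Junb had 26.1 kcounts in cKO 5 and 31.7 kcounts in control 4. The difference of U0110 to U0115 minus U0458 to U0468 was 0.10 (SE 0.13, limma adjusted p = 0.612). Dnajb1 was low in the series U0252 to U0256, with 4.25, 6.30 and 4.48 kcounts, against 8.74 and 9.58 kcounts in the series U0458 to U0468. That difference was -0.87 (SE 0.21), and as a single contrast it did not pass (limma adjusted p = 0.0828), beside 0.554% of all genes that did. Without control 3 the F test no longer passed for Junb (adjusted p = 0.132) or Dnajb1 (0.101), and Dnajb1 also lost it without cKO 3, cKO 5 or control 4 (0.0576 to 0.0861). Ier2 passed under every alternative that was run.

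In young males 2 of 10 members passed between the 3 series, beside 13.2% of all genes, and 5 of 10 at an unadjusted p under 0.05, beside 34.4%. Atf3 had 21.8 and 16.0 kcounts in the series U0223 to U0224, against 40.0 and 42.8 kcounts in the series U0458 to U0468, while the series U0110 to U0115 lay between them with 28.4 and 26.5 kcounts. The 3 series, of 2 libraries each, did not overlap, which was not counted over all genes. The log2 difference of U0223 to U0224 minus U0458 to U0468 was -1.15 (SE 0.16, limma adjusted p = 0.0130), a contrast in which 2.49% of all genes passed. The F test of Atf3 gave an adjusted p of 0.0146 with all libraries and 0.0585 without control 2.

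Fosb, which forms AP-1 with Jun proteins, was the other member that passed in young males (F test, limma adjusted p = 0.0317). It had 65.8 and 43.3 kcounts in the series U0223 to U0224 and 59.2 and 69.0 kcounts in the series U0110 to U0115, against 118 and 106 kcounts in the series U0458 to U0468. Both libraries of U0458 to U0468 were above the other 4. Relative to Fos in the same library, Fosb was 1.32 and 0.985 in the series U0458 to U0468, and 0.641, 0.641, 0.562 and 0.670 in the other 2 series. Without cKO 2, control 2 or control 3 the F test of Fosb did not pass (adjusted p 0.0563 to 0.149), and without the filter on low values it gave 0.0745. Junb had 46.9 and 58.3 kcounts in the series U0110 to U0115, against 34.9 and 27.5 kcounts in the series U0223 to U0224, a contrast of 0.76 (SE 0.18, limma adjusted p = 0.0372) in which 11.1% of all genes passed, although its F test did not pass (0.0539).

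**Figure D3:**
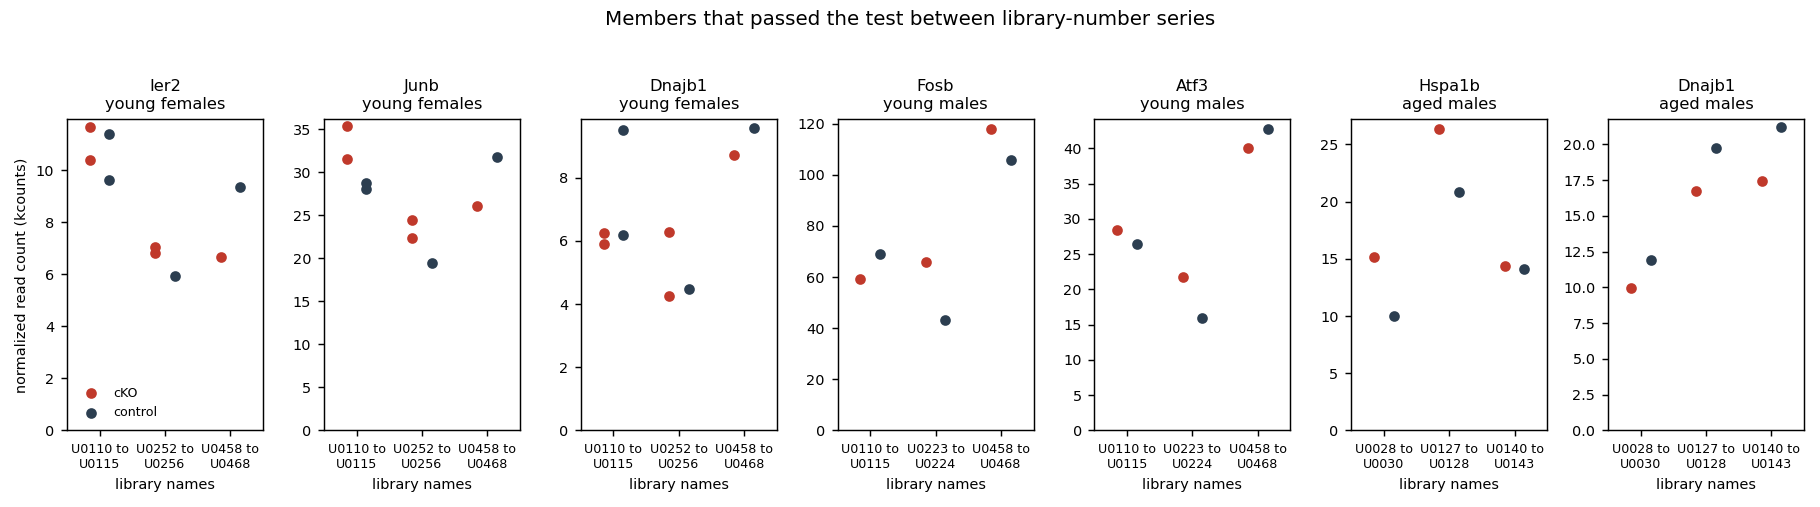
Normalized read count in kcounts (vertical axes, from 0) by library-number series (horizontal axes) for the 7 results in which a member passed the F test between series, with cKO libraries in red and control libraries in dark blue. By series mean, Ier2 and Junb of young females are highest in the series U0110 to U0115, Fosb and Atf3 of young males in U0458 to U0468, and Hspa1b of aged males in U0127 to U0128. For Junb, control 4 of U0458 to U0468 lies within the range of U0110 to U0115.

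Young females and young males both include the series U0110 to U0115 and U0458 to U0468, with different libraries, which allowed the same contrast to be measured in each sex. In U0110 to U0115 minus U0458 to U0468, Fosb differed by -0.75 in females and -0.80 in males, Atf3 by -0.63 and -0.59, and Ier2 by 0.44 and 0.40, on the log2 scale. Fosb passed in both (limma adjusted p = 0.0380 in females and 0.0474 in males), Ier2 in females (0.0368) and Atf3 in males (0.0490), beside 28.2% of all genes in females and 10.6% in males. The calls of Fosb in females were lost without cKO 1, cKO 2, cKO 5, control 2 or control 4 (adjusted p 0.0830 to 0.294) and in males without cKO 1, cKO 2 or control 2 (0.112 to 0.308). Those of Ier2 in females were lost without cKO 1, cKO 2, cKO 5 or control 1 (0.0586 to 0.571), and those of Atf3 in males without cKO 1, cKO 2, control 1 or control 2 (0.0806 to 0.447). Egr1 had -0.53 and -0.14, and Dnajb1 -0.42 and -0.14, without passing in either sex. The sign was the same in both sexes for 10 of 10 members, 5 above 0 and 5 below, and for 76.9% of all 13535 genes tested in both tables. With quantile normalization the sign turned for Fos, Junb, Hspa1a and Hspa1b in females and for Fos and Hspa1b in males. The difference of this contrast between females and males passed for 0 of 10 members (limma adjusted p 0.758 or higher), beside 0.0148% of all genes, and 0 of 10 had an unadjusted p under 0.05, beside 8.10%.

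**Figure D4:**
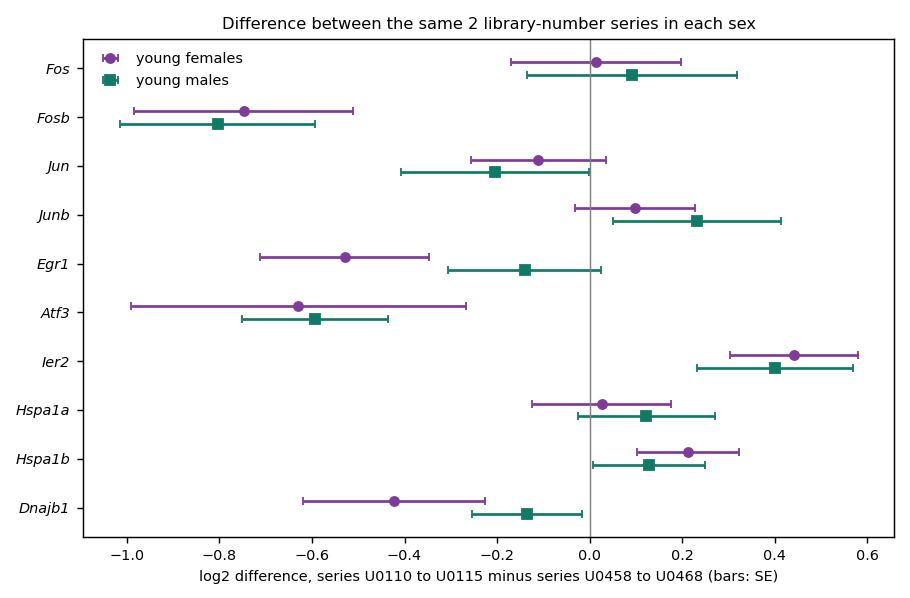
Log2 difference of the series U0110 to U0115 minus the series U0458 to U0468 (horizontal axis) for each member in young females (purple circles) and young males (green squares), with bars of 1 SE. For each member both sexes lie on the same side of 0, from about -0.80 for Fosb in males to 0.44 for Ier2 in females.

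Markers of other cell types also differed between these series. The 6 fibroblast markers were above 0 in every library, and their summed value in young females was 1342 to 1872 in the series U0110 to U0115, 758 to 3631 in U0252 to U0256 and 2942 to 4653 in U0458 to U0468. In young males it was 7817 and 14448 in U0110 to U0115, 5188 and 3269 in U0223 to U0224, and 4899 and 4618 in U0458 to U0468. Summed melanocyte markers were 105 to 329 in U0110 to U0115 and 712 to 953 in U0458 to U0468 in young females, and 173 to 239 against 278 to 360 in young males. Estimated depth in young females was 15.8 to 22.8 M reads in U0110 to U0115 and 20.3 to 29.0 M in the other 2 series. The part of fibroblast RNA, melanocyte RNA and depth in the members' contrasts was not tested.

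In aged females 0 of 10 members passed between the 2 series, beside 0.0205% of all genes, and 1 of 10, Hspa1a, had an unadjusted p under 0.05 by limma, beside 11.6%. Hspa1a had 5.04 and 9.13 kcounts in the series U0137 to U0138, against 12.9 and 9.87 kcounts in the series U0601 to U0603 (log2 difference -0.73, SE 0.27, adjusted p = 0.405). The low value is that of cKO 7 described above.

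In aged males 2 of 10 members passed between the 3 series, Dnajb1 (limma adjusted p = 0.0235) and Hspa1b (0.0368), beside 9.12% of all genes, and 5 of 10 at an unadjusted p under 0.05, beside 30.9%. The Hsp70 genes were high in the series U0127 to U0128. Hspa1b had 15.1 and 9.96 kcounts in the series U0028 to U0030, against 26.4 and 20.8 kcounts in the series U0127 to U0128. Hspa1a had 12.5 and 7.91 kcounts in U0028 to U0030, against 20.6 and 16.4 kcounts in U0127 to U0128. In the series U0140 to U0143 they had 14.3 and 14.1 kcounts (Hspa1b) and 9.37 and 10.5 kcounts (Hspa1a). Neither library of U0127 to U0128 overlapped with the other 4 in either gene. The log2 difference of U0028 to U0030 minus U0127 to U0128 was -0.93 for Hspa1b (SE 0.16, limma adjusted p = 0.0205) and -0.88 for Hspa1a (SE 0.20, adjusted p = 0.0370), a contrast in which 13.1% of all genes passed. Against U0140 to U0143, the series U0127 to U0128 was higher by 0.72 for Hspa1b (limma adjusted p = 0.0454) and 0.89 for Hspa1a (adjusted p = 0.0463), beside 7.68% of all genes.

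Dnajb1 had another pattern in aged males. It had 9.98 and 11.9 kcounts in the series U0028 to U0030, against 16.7 and 19.7 kcounts in U0127 to U0128 and 17.4 and 21.2 kcounts in U0140 to U0143. It was low in U0028 to U0030 and similar in the other 2 series, and its difference of U0028 to U0030 minus U0127 to U0128 was -0.74 (SE 0.11, limma adjusted p = 0.0162). Jun, like the Hsp70 genes, was highest in U0127 to U0128, with 53.1 and 51.9 kcounts against 32.9 to 49.5 kcounts in the other 4 libraries. Fos was not: it had 124 and 126.5 kcounts in U0127 to U0128, the lowest values of the table, against 157 and 208 kcounts in U0140 to U0143. Atf3 was highest in U0140 to U0143, with 58.2 and 76.5 kcounts, against 37.7 to 49.2 kcounts in the other 4 libraries, and its F test did not pass (adjusted p = 0.0551).

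The calls in aged males rested on few libraries. Without cKO 4, cKO 6, control 4 or control 6 neither Hspa1b (adjusted p 0.0513 to 0.185) nor Dnajb1 (0.0753 to 0.139) passed. Without the library labelled cKO 5 they were at 0.042 and 0.0438, and without that labelled control 5 at 0.0344 and 0.0419. The fit could not be made without cKO 5, control 5 and control 6 together, because no residual degrees of freedom remain. Summed fibroblast markers were 15416 and 17113 in the series U0028 to U0030, 1781 and 1594 in U0127 to U0128, and 34620 and 29474 in U0140 to U0143, so the series with high Hsp70 values was also the one with low fibroblast values. The part of fibroblast RNA in these differences was not tested.

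Members varied together across libraries in groups. Deviations of log2(value + 1) from the mean of the table and genotype group were correlated over 25 libraries, as a description, since these points share series, depth and scaling. The highest Pearson r was that of Hspa1a and Hspa1b, 0.93, which may share reads. Junb and Ier2 had 0.91 and Atf3 and Dnajb1 0.85. Fosb had 0.79 with Egr1 and 0.72 with Atf3. Jun lay with the Hsp70 genes, at 0.80 with Hspa1a and 0.75 with Hspa1b, above its 0.54 with Junb and 0.41 with Fos. In aged females, with 2 libraries per group, the deviations of a group are equal and opposite. In cKO 6 and cKO 7 they were 0.43 and -0.43 for Jun, 0.68 and -0.68 for Hspa1a, and 0.75 and -0.75 for Hspa1b. The r values were not computed without these libraries. Dnajb1 had 0.37 with Hspa1a and 0.30 with Hspa1b. Fosb had values near 0 with Hspa1a (0.01), Hspa1b (-0.08) and Ier2 (0.07).

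**Figure D5:**
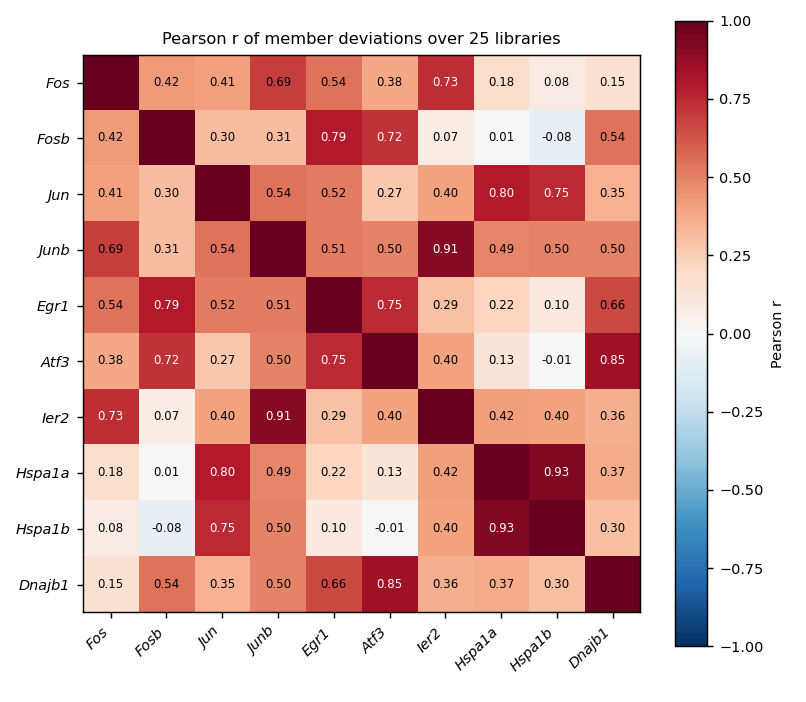
Pearson r between members, over 25 libraries, of the deviation of log2(value + 1) from the mean of the table and genotype group, with red for positive and blue for negative values. The darkest cells off the diagonal join Hspa1a with Hspa1b (0.93), Junb with Ier2 (0.91) and Atf3 with Dnajb1 (0.85).

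Other genes followed the members across the same libraries. Of 13448 genes tested in every table, those with the highest r with the mean deviation of the 7 immediate early members included Zfp36 (0.93), Atf4 (0.88), Dlx5 (0.84), Klf4 (0.83), Tfap2c (0.82), Pnrc1 (0.81) and Lag3 (0.80). Zfp36 encodes a protein that destabilizes short-lived mRNAs, and Klf4 a transcription factor of keratinocyte differentiation. With the mean of the 3 heat shock members the 8 highest were Gadd45b (0.86), Mdfi (0.79), Cactin (0.78), Slc9a3r1 (0.77), Mb21d2 (0.76), Myc (0.76), Cks2 (0.74) and Homer1 (0.74). These are the extremes of a search over all genes, and each r covers 25 libraries that fall into series.

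The rest of the pathway was read from 7 lists of related genes. In cKO against control, 1 of 10 measured genes of MAPK feedback and 1 of 24 of the cytosolic heat shock list passed in young females, both lower, beside 3.94% of all genes tested. They were Etv5, an ETS factor induced by growth factor signalling, at -1.24 (SE 0.19, limma adjusted p = 0.00632), and Dnaja4, a co-chaperone of Hsp70, at -0.69 (SE 0.11, adjusted p = 0.00748). The other lists in young females, and all 7 lists in the other 3 tables, had 0 genes passing by limma. Among other immediate early transcription factors of young females, Egr2, the relative of Egr1, had 0.40 (unadjusted p = 0.0318, adjusted p = 0.240). The medians of that list were -0.09 in young females, 0.14 in young males, -0.19 in aged females and 0.01 in aged males, beside medians of all genes between -0.01 and 0.00.

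Between series, 5 of 14 other immediate early transcription factors passed the F test in young females and 11 of 14 in young males, and of immediate early effectors 11 of 27 and 17 of 28, beside 35.0% of all genes in females and 13.2% in males. The counts in females were near the share of all genes, and in aged females the limma F test called 0 genes of these 2 lists, beside 0.0205% of all genes. In U0110 to U0115 minus U0458 to U0468 of young males, 7 of 14 of these factors were lower and 0 higher, beside 4.76% and 5.88% of all genes, with a list median of -0.53 beside -0.02 over all genes. Nr4a3, an orphan nuclear receptor of the early response, was at -3.07 (F test, limma adjusted p = 4.36e-04), Nr4a1 at -1.05 (0.0122) and Egr2 at -0.89 (0.0125). Klf2 went the other way, at 0.72, and did not pass in this contrast, although its F test over all series did (limma adjusted p = 0.0122). Fosl1, a further AP-1 subunit, was at -2.44 in females (0.0355) and -2.56 in males (0.00971). With 1 library left out, the adjusted p of Fosl1 reached 0.160 in females and 0.0150 in males. In young females the same contrast had 2 of 14 factors lower and 0 higher, with a list median of -0.21, beside 12.5% and 15.7% of all genes.

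In U0110 to U0115 minus U0458 to U0468, 4 of 24 genes of the cytosolic heat shock list were higher and 3 lower in females, beside 15.7% and 12.5% of all genes, and 1 was higher and 1 lower in males, beside 5.88% and 4.76%. In that contrast Hspb1, a small heat shock protein of keratinocytes, was at 0.82 in females and 0.82 in males (F test, limma adjusted p = 2.10e-04 and 0.0260), while Hspa4l, of the Hsp110 kind, was at -0.75 and -0.69 (8.15e-04 and 0.0277). With 1 library left out the adjusted p in males reached 0.136 for Hspb1 and 0.0738 for Hspa4l. In aged males, 10 of 24 genes of the cytosolic heat shock list were lower and 0 higher in U0028 to U0030 minus U0127 to U0128, beside 8.18% and 4.90% of all genes, with a list median of -0.41 beside 0.01. Hsph1 was at -1.85 and Hspa4l at -1.33 (F test over all series, limma adjusted p = 0.00947 and 0.0183). Hspa4 was at -1.15 and Stip1, which joins Hsp70 to Hsp90, at -1.06 (0.0196 each). Later brackets in this paragraph hold the adjusted p of the same F test, not of the contrast. Of the ER stress list 7 of 14 were lower and 0 higher in the same contrast. Among them Hspa5, the Hsp70 of the endoplasmic reticulum, was at -1.87 (0.00634) and Creld2 at -1.39 (0.0245). Fosl1 was at -2.40 (0.00964) there, Nr4a3 at -1.77 (0.0193) and Myc at -1.10 (0.0245), while in the same contrast Fos had 0.41 and Junb 0.05. None of these 9 genes of aged males passed the F test without cKO 6 (limma adjusted p 0.0673 to 0.0774) or without control 6 (0.119 to 0.140).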

How the data were processed

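Mouse epidermis RNA-seq was analysed from 4 tables of normalized read counts (signal values) that the authors deposited, with 24972 rows each, of which 26 had names turned into dates and were left out. Values are not whole counts. The submitters' processing notes name STAR, DESeq2, GRCm38 and mm10, without versions or roles; counting program and filters are not given in the sources used here. The authors' deposited comparison tables give mean signal values, log2 fold changes, a test score, p-values and adjusted p-values. That of young cKO females holds 16370 genes as used here, and its last name in the alphabet is OTTMUSG00000016609. Its share of genes passing thus covers an alphabetical part of the 24946 genes. The extent of the other comparison tables was not checked. Tables were scaled separately, so tests stay within a table.

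The filter on low values kept genes reaching 10 in a number of libraries no lower than the size of the smaller group. Tests used limma (3.58.1, R 4.3.3) on log2(value + 1) with a trended prior, and Benjamini-Hochberg adjustment over all genes tested at 0.05. Fold changes on this scale slightly understate low genes. Series were compared by a moderated F test with genotype as a term, and cKO effects between tables by contrasts in 1 fit of 25 libraries. Scripts were tested on simulated data. Reads per library were estimated from the most frequent low value of each library, taken as the step of 1 read. Of values up to 20 steps, 54.2% to 88.6% per library lay within 0.1 step of a whole multiple, so estimated depths are approximate. Confidence intervals reflect the spread between libraries. Replicate numbers follow sample order and pair nothing. Deviations of cKO and control libraries of the same series correlated over genes (r 0.40 to 0.63 in young females, 0.40 to 0.52 in young males, 0.24 to 0.67 in aged males), so a fit with series as a term is given where it matters. The members and the gene lists were chosen with earlier results of these data known. All 10 members are named; of each list and comparison up to 4 genes with the smallest adjusted p, those shown being a selection of them; and the 8 genes most alike, of which 1 is not reported here. Alternatives were another pseudocount, no filter, quantile normalization, a robust prior, the series term, 1 fit of all libraries, Hspa1a and Hspa1b summed, and each library left out. GENCODE M21 gave coordinates and exon lengths, matching 97.9% of symbols.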

Additional observations from a re-analysis of the deposited data

Results flagged for a closer look

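Of 20 groups of 4 or 5 young female libraries (10 members in cKO and in control), 1 had a library far from the others: Egr1 in control 4 was 47976 normalized counts, the highest of the 4 controls, and the gap to the next control was 0.856 of the range of the group. Chance gives about 1 such group in 20. The cause was not tested.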

How the results depend on the processing

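In cKO against control 0 of 10 members passed in each table under every alternative run, series as a term of the fit included, and the fit with series (a replicate block) changed no call. Between series, the count in young females was 5 with quantile normalization and 2 to 6 with 1 library left out. In young males it was 1 without the filter on low values and 0 to 5 with 1 library left out. In aged males it was 1 without the filter, 5 with a robust prior and 0 to 3 with 1 library left out. The share of all genes passing was not counted under these alternatives. A higher or lower count of members therefore does not set them apart from other genes. In aged females no fit between series could be made with 1 library left out, since no residual degrees of freedom remain.

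Quantile normalization turned log2 differences of cKO minus control to -0.021 for Fos and 0.11 for Hspa1b in young females, and to -0.026 for Fos and 0.010 for Hspa1a in young males. In the series U0110 to U0115 minus U0458 to U0468 it gave -0.30 for Fos, -0.20 for Junb, -0.099 for Hspa1a and -0.16 for Hspa1b in young females, and -0.021 for Fos and -0.11 for Hspa1b in young males. Without the series U0223 to U0224, an alternative chosen after seeing the data, young males gave -0.12 for Fos, -0.0302 for Fosb, -0.11 for Jun, -0.071 for Junb, -0.076 for Egr1 and -0.19 for Ier2. Without cKO 5, control 5 and control 6, also chosen after seeing the data, aged males gave 0.24 for Jun and 0.12 for Dnajb1.

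With 1 library left out, uncalled differences of cKO minus control changed sign. In young females their ranges were -0.017 to 0.17 for Fos, -0.29 to 0.078 for Fosb, -0.095 to 0.14 for Junb, -0.28 to 0.0295 for Ier2 and -0.085 to 0.041 for Hspa1b. In young males they were -0.089 to 0.24 for Fos, -0.14 to 0.50 for Fosb, -0.027 to 0.28 for Jun, -0.21 to 0.33 for Junb, -0.14 to 0.20 for Egr1, -0.21 to 0.50 for Atf3, -0.23 to 0.26 for Ier2, -0.11 to 0.074 for Hspa1a and -0.23 to 0.046 for Dnajb1. In aged females they were -0.034 to 0.55 for Fos, -0.24 to 0.096 for Fosb, -0.54 to 0.32 for Jun, -1.13 to 0.23 for Junb, -0.75 to 0.29 for Ier2, -0.91 to 0.44 for Hspa1a and -1.22 to 0.28 for Hspa1b. In aged males they were -0.34 to 0.022 for Fos, -0.066 to 0.18 for Ier2 and -0.031 to 0.56 for Hspa1a. In the series U0110 to U0115 minus U0458 to U0468 of young females they were -0.40 to 0.43 for Fos, -0.42 to 0.20 for Jun, -0.17 to 0.36 for Junb and -0.17 to 0.22 for Hspa1a. In that contrast of young males they were -0.20 to 0.38 for Fos, -0.50 to 0.094 for Jun, -0.055 to 0.52 for Junb, -0.28 to 0.0044 for Egr1 and -0.012 to 0.26 for Hspa1a. The cause was not tested.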
